A study of Mus musculus with 31 samples.

Results

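Among the CpG-poor and moderately CpG-rich stretches of the mouse genome that become methylated as the oocyte grows, 893 tiles of 100 bp were still low in the Type5b oocytes of secondary follicles and high in the Type7 oocytes of antral follicles. They are called late tiles here. A late tile had a methylation level under 20% in both Type1 and Type2 oocytes of primordial follicles, under 40% in Type5a and in Type5b, and over 70% in Type7, with fewer than 40 listed CpG sites in the 1 kb around it. The level is the percentage of methylated reads over the sites of a tile, and each tile had at least 3 sites of at least 5 reads in at least 2 libraries of each of those 5 stages. Late tiles were 19.1% of the 4676 tiles that met the same limits without those on Type5a and Type5b, called gained tiles, and 1.81% of the 49374 tiles measured in those stages. The tiles were set beside 1941 gained tiles that were under 40% in Type5a and already over 70% in Type5b.

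The study read DNA methylation by reduced representation bisulfite sequencing, in which the enzyme MspI cuts at CCGG and bisulfite turns unmethylated cytosine into uracil, in oocytes of B6D2F1 mice (C57BL/6 x DBA/2). Its 31 libraries cover 9 stages of follicle growth. Type1 and Type2 came from primordial follicles, Type3a and Type3b from primary follicles, Type4, Type5a and Type5b from secondary follicles, and Type6 and Type7 from antral follicles, with 5 libraries in Type4 and in Type5a and 3 in each other stage. The labels give no treatment, age or number of oocytes per library and do not state if each library had its own animals, so p-values reflect library-to-library spread that may be of technical origin.

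The mouse oocyte enters growth with little DNA methylation and acquires it while arrested in meiosis. DNMT3A, helped by its cofactor DNMT3L, places methyl groups on CpGs, in large part across transcribed gene bodies, while many CpG-rich promoters stay free of it. The pattern set in the full-grown oocyte passes to the embryo, where part of it is kept as maternal imprints.

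The levels in Type1, Type2, Type5a, Type5b and Type7 chose the tiles, so those stages are given as a description. Type3a, Type3b, Type4 and Type6 took no part in the rule, but they lie between stages that did, so their levels are not wholly independent of it.

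Genes were placed by sequence. The gene annotation at hand is of another build (GRCm38.p6) than the files (mm9), so the 300-bp promoters of RefSeq (250 bp before to 50 bp after a start) were looked for among the deposited sites by the letters around each CpG and the spacing of the CpGs. Of 32851 promoters, 22424 held at least 4 CpGs and 9375 were found once, at 8351 genes. A tile called far from a matched start can therefore lie near a start that was not matched.

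In 32 genes, 25 of them protein coding, a late tile lay in the promoter window itself. The promoters of 6 of them are shown because they span the range of Type6 levels, from nearly complete to hardly begun. Each is the RefSeq sequence of GRCm38.p6, 5′ to 3′ on the strand of the gene, and capitals mark the bases inside late tiles. Tmem91 is chr7:25675117-25675416 on the minus strand, Fkbp6 is chr5:135349864-135350163 on the minus strand, Abl1 is chr2:31759689-31759988 on the plus strand, Dnmt1 is chr9:20952574-20952873 on the minus strand, Hivep2 is chr10:13966129-13966428 on the plus strand and Ak8 is chr2:28699911-28700210 on the plus strand.
Tmem91: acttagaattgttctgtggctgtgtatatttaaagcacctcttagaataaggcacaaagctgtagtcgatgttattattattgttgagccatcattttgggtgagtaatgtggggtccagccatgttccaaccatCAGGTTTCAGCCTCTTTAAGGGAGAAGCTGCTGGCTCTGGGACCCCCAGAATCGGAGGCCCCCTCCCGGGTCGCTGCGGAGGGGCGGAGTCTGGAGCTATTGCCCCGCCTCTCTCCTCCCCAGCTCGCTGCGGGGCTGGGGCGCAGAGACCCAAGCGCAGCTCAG
Fkbp6: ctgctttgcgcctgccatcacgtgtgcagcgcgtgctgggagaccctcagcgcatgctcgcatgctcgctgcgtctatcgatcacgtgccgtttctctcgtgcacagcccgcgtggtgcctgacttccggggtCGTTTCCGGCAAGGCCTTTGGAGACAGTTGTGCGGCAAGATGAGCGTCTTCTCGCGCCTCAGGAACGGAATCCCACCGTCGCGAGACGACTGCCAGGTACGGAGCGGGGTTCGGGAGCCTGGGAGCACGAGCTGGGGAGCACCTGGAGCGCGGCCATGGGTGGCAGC
Abl1: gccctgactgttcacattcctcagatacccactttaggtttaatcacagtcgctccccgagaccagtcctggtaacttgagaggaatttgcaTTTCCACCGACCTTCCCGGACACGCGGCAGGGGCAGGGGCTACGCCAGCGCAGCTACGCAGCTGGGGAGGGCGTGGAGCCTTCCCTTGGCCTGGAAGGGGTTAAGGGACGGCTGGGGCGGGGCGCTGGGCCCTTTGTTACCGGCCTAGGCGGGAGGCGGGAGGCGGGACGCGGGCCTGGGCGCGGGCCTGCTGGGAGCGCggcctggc
Dnmt1: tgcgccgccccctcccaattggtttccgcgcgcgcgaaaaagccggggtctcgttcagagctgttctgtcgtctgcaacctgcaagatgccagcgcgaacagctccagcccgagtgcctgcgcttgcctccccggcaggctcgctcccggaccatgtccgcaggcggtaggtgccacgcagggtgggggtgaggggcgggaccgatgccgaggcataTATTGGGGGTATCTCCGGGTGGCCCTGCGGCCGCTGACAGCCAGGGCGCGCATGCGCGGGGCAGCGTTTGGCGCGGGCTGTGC
Hivep2: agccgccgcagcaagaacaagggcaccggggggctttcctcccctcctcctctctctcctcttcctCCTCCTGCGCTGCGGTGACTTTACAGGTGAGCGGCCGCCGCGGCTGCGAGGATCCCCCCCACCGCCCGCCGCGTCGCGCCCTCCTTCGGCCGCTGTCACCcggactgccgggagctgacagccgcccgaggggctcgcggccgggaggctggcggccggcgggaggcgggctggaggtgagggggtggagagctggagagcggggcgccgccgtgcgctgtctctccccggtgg
Ak8: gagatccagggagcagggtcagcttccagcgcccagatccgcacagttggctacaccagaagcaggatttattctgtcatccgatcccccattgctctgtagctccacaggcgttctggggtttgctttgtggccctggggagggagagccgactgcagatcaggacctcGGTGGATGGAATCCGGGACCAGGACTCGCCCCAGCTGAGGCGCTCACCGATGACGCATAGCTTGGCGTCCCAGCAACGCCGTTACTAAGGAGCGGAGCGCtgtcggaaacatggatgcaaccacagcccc
The late tiles held 10 of the 11 CpGs of the Tmem91 window, 17 of 32 in Fkbp6 and 21 of 23 in Abl1. They held 10 of 33 in Dnmt1, 15 of 35 in Hivep2 and 10 of 17 in Ak8.

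The late tiles as a set stayed low through the primary and secondary stages, were intermediate in Type6 and high in Type7. Their mean level per library was 15.2, 2.98 and 4.45% in Type3a and 6.2, 10.2 and 11.5% in Type3b. In Type4 it was 16.4, 26.7, 7.10, 16.2 and 5.43% in replicates 1, 2, 4, 5 and 6. In Type5a it was 5.74, 2.56, 13, 5.97 and 17.8%, and in Type5b 28.5, 14.9 and 18.4%. In Type6 it was 63.7, 64.7 and 64.2%, and in Type7 90, 89.9 and 90.8%. The 3 Type6 libraries lay above every library of Type3a, Type3b and Type4, without overlap, and close together. The stage means were 64.2% ± 0.480 (SD, n = 3) in Type6, 14.4% ± 8.54 (n = 5) in Type4, 9.28% ± 2.76 (n = 3) in Type3b and 7.56% ± 6.69 (n = 3) in Type3a.

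**Figure D1:**
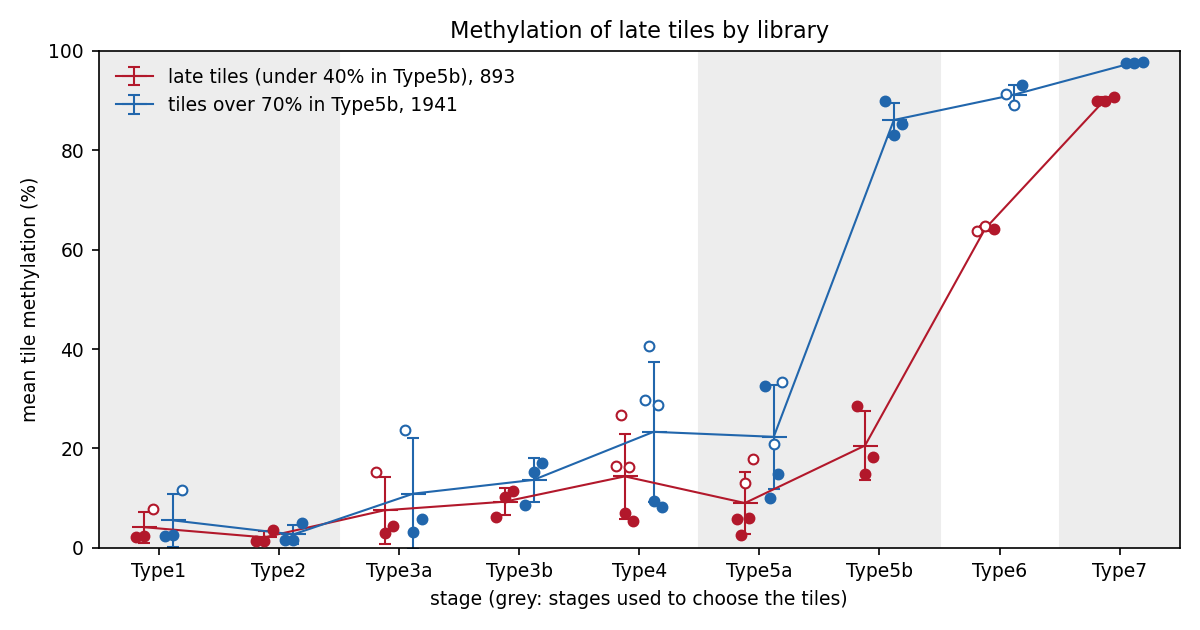
Mean methylation (%) of the 893 late tiles and of the 1941 tiles over 70% in Type5b, by stage. Points are libraries, open where the X measure described in the text was above 0, bars are the mean and SD, and grey marks the stages that chose the tiles. Late tiles were at 63.7 to 64.7% in Type6 and at 89.9 to 90.8% in Type7.

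The late tiles trailed the other set in Type6. The late tiles lay 27.5, 24.4 and 28.9 points below the tiles over 70% in Type5b in the 3 Type6 libraries, where that set was at 91.3, 89.1 and 93.1%. In Type4 the late tiles were lower by 13.4, 14, 2.23, 12.5 and 2.72 points, and in Type3b by 2.45, 5.17 and 5.51 points. Late tiles were thus the lower set in 11 of 11 libraries of these 3 stages, and also in the 3 libraries of Type3a, by 8.49, 0.261 and 1.29 points. In Type7, which had to exceed 70%, the gap was 7.53, 7.73 and 7.04 points.

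Some libraries carry more methylation on the X chromosome than others. The levels of the late tiles in Type4 and Type5a moved with it, as did those of all measured tiles. The tiles over 70% in Type5b did so in Type4 but not clearly in Type5a. The measure is the mean level of 63 CpG-dense X tiles minus that of 2902 CpG-dense autosomal tiles, and it was above 0 in 9 libraries. In Type4 the 3 libraries above 0 had 16.2 to 26.7% in late tiles, and the 2 below 0 had 5.43 to 7.10%. The tiles over 70% in Type5b had 28.7 to 40.7% in the first 3 Type4 libraries and 8.15 to 9.32% in the other 2, and all measured tiles had 27.7 to 34.3% and 18.8 to 19.7%, so the split was not particular to late tiles. The gap between the late tiles and that set was 12.5 to 14 points in the first 3 and 2.23 and 2.72 points in the other 2. In Type3a it was 8.49 points in the library above 0, and 0.261 and 1.29 points below 0. In Type6 it was not wider above 0, with 27.5 and 24.4 points against 28.9 points. In Type5a the 2 libraries above 0 had 13 to 17.8% in late tiles, and the 3 below had 2.56 to 5.97%. The tiles over 70% in Type5b overlapped there, at 20.8 to 33.3% in the first 2 and 10.1 to 32.6% in the other 3. All measured tiles had 25.2 and 28.1% in the first 2, against 18.7 to 21.9%. In Type6 the 2 libraries above 0 had 63.7 and 64.7%, and the third had 64.2%. Without the 9 libraries, the rule gave 483 late tiles, at 64.6% in the 1 Type6 library left and 6.63% in Type4. What these libraries contain was not tested.

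Taken one by one, most late tiles were higher in Type6 than in Type4. The model of methylated and total reads over the 14 libraries of Type3a, Type3b, Type4 and Type6 called 482 of 830 tested late tiles higher in Type6 and 0 lower (adjusted p under 0.05 and at least 20 points, quasi-binomial F test with Benjamini-Hochberg adjustment over all tiles), where 11.4% of all 74273 tiles tested were called higher and 0.226% lower. The median difference was 51.7 points over the late tiles and 2.50 points over all tiles. The difference was above 0 in 811 of the 830. Among the 1815 tested tiles over 70% in Type5b, 1400 were called higher. Gained tiles had to be high in Type7 and low in the primordial stages, so a large share of calls in Type6 is partly set by that choice. Against Type3b, 423 of 726 late tiles were called higher in Type6 and 0 lower, with 14.3% of all tiles called higher and 0.0777% lower. An edgeR quasi-likelihood test on the same reads called no late tile in either comparison, and its likelihood ratio test, added after that result was seen, called 424 and 375.

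No late tile was called between the primary and the early secondary follicle. In Type4 against Type3b, 0 of 759 late tiles were called higher and 0 lower, where 0.00788% of all 63467 tiles were called higher and 0.00315% lower (quasi-binomial F test). Of the late tiles 57, or 7.51%, had an unadjusted p under 0.05, against 10.5% of all tiles. limma called 0, edgeR's quasi-likelihood test 0 and its likelihood ratio test 3. The median difference was 1.71 points over the late tiles and 9.67 points over the tiles over 70% in Type5b.

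How far a tile had come in Type6 went with its level in Type5b. The 230 late tiles under 10% in Type5b had 49.6% ± 1.25 in Type6 (SD, n = 3 libraries). Those from 10 to 20% (171 tiles) had 61.8% ± 1.46, those from 20 to 30% (234 tiles) 68.4% ± 2.35, and those from 30 to 40% (258 tiles) 75.3% ± 0.653. The ranges over the 3 libraries did not overlap between neighbouring bins, from 48.7 to 51.0% in the lowest to 74.7 to 76.0% in the highest. In Type4 the same 4 bins had 10.3, 13.7, 16.1 and 16.8%, and there the ranges overlapped.

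**Figure D2:**
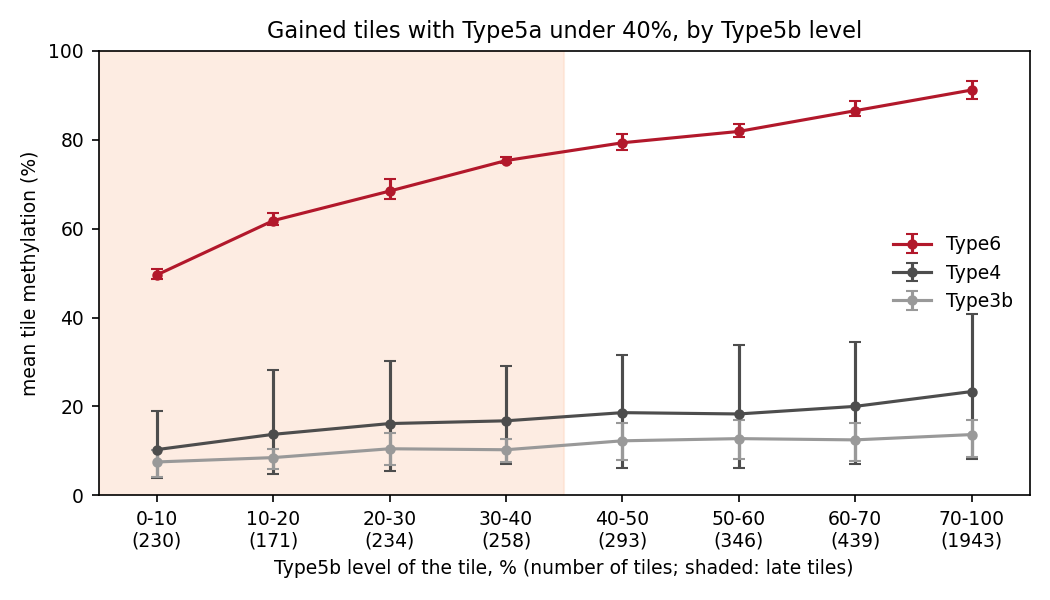
Mean methylation (%) in Type6, Type4 and Type3b of gained tiles with Type5a under 40%, by their level in Type5b, with the number of tiles in brackets. Points are means over libraries, bars run from the lowest to the highest library, and the shaded bins are the late tiles, which ran from 49.6 to 75.3% in Type6.

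The 40% limit divides a continuous range. The late tiles just inside it were at 39.9, 39.9 and 39.8% in Type5b, and the gained tiles just outside at 40, 40 and 40.1%. In Type6 the first 3 were at 54.8, 96.8 and 80.1%, and the other 3 at 25.9, 100 and 81.2%. A library that took no part in the choice was less extreme. When each Type5b library was left out of the rule and then measured, it had 32.5% ± 11.1 (n = 3, 24.9 to 45.2%) in the late tiles chosen by the others, and 46.8 to 75.4% of those tiles were under 40% in it. Type7 libraries treated so had 82.7% ± 1.77 (n = 3), and Type5a libraries 9.33% ± 6.44 (n = 5).

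Single tiles differed strongly between libraries of one stage. In the 635 late tiles measured in all 3 Type6 libraries, the median gap between the highest and the lowest library was 34.7 points, and 196 of them (30.9%) differed by over 50 points. In 1391 tiles over 70% in Type5b the median gap was 9.87 points, and 106 (7.62%) differed by over 50. In Type7 the median gap was 13.9 points in 507 late tiles. Across the 635 tiles the levels of any 2 Type6 libraries had a Pearson r of 0.41 to 0.42, a description over tiles that share libraries.

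In Type6 the late tiles spread over the whole scale. Of 837 late tiles measured in 2 or more Type6 libraries, 271 had reached 80% or more and 230 lay between 60 and 80%. Another 182 lay between 40 and 60%, 103 between 20 and 40%, and 51 were under 20%. The tenth and ninetieth percentiles were 27.7 and 96.1%. Most single CpG sites were near one end of the scale: of sites with at least 10 reads in late tiles, 46.9, 44.4 and 41.0% were over 80% in the 3 Type6 libraries, and 20.2, 18.4 and 17.1% under 20%.

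The 6 tiles with the largest difference were nearly complete in Type6 and nearly empty in Type4. They were picked among tiles called higher whose Type6 and Type4 libraries did not overlap. Their p-values are therefore set by that choice and are given as a description. Chromosome 15, 44619401 to 44619500 (mm9), had 97.6, 97.6 and 100% in Type6, against 1.60, 5.38, 0, 0 and 0.239% in Type4 (replicates 1, 2, 4, 5 and 6), a difference of 96.9 points (quasi-binomial adjusted p = 1.83e-05; exact permutation p = 0.0357, the smallest that 3 against 5 libraries allow). Its Type5b libraries stood apart from each other, at 76.6, 0 and 18.7%. A tile on chromosome 16, 30172001 to 30172100, had 100% in each of the 3 Type6 libraries, against 0, 0, 24.3 and 0% in 4 Type4 libraries (adjusted p = 0.000504, quasi-binomial; exact permutation p = 0.0571). A pair of neighbouring tiles on chromosome 10, 75180301 to 75180500, lay inside the gene Cabin1, which encodes a calcineurin-binding protein, 46752 and 46652 bp from its start. The first had 98.4, 94.7 and 96.7% in Type6, against 0% in each of 3 Type4 libraries, and the second 100, 81.2 and 100%, against 0% in the same 3. In Type3a replicate 1 both were at 80%, from 15 reads each, and in replicate 2 at 3.36 and 3.49%. The others were on chromosome 18 at 60766501 (99.6% in Type6, 3.54% in Type4) and in the Tmem91 promoter.

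At the other end were late tiles that were low in Type6 and high only in Type7, some of them not in every Type7 library. A tile on chromosome 8, 72854101 to 72854200, 486 bp past the start of Gdf1, which encodes a TGF-beta family growth factor, had 7.18, 0 and 6.67% in Type6 and 2.46, 0, 0 and 0% in Type4. In Type7 it was at 87.9 and 99.4%. A tile on chromosome 13 at 56397501 had 8.19, 0 and 15.9% in Type6 and 0% in all 5 Type4 libraries, and 100, 68.3 and 47.1% in Type7. A tile on chromosome 11 at 88311601 had 7.65% ± 11.5 in Type6 (n = 3) and 2.68% ± 2.83 in Type4 (n = 4), and 94.1% ± 10.2 in Type7 (n = 3). The other 3 of the lowest 6, on chromosome 4 at 154417501, chromosome 8 at 107778301 and chromosome 1 at 154247001, had 3.33, 6.61 and 7.52% in Type6. None of the 6 was called against Type4, since all differed by less than 20 points.

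A few tiles went against the set and were high in Type4. The 3 highest were on chromosome 14 at 118992301 inside Abcc4, a drug and nucleotide exporter, chromosome 2 at 69604301 inside Ccdc173, and chromosome 7 at 134132001. The Ccdc173 tile had 100, 83.4 and 68.8% in Type4 replicates 1, 2 and 5, and 0% in both measured Type5b libraries. In Type6 it was at 92.8, 87.4 and 92.5%. Replicates 1, 2 and 5 were the Type4 libraries with an X measure above 0, and replicates 4 and 6 did not measure this tile. The tile on chromosome 7 had 100, 89.1, 43.9 and 100% in Type4 replicates 1, 2, 5 and 6, and 96% in the 1 Type3b library that measured it. Replicate 6, where 313 of 313 reads were methylated, has an X measure below 0, so high Type4 levels did not always go with that measure.

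Late tiles lay near matched gene starts more often than tiles methylated earlier. Within 1 kb of a matched start were 108 of 868 late tiles (12.4%), against 46 of 1901 tiles over 70% in Type5b (2.42%) and 112 of 3708 gained tiles that were not late (3.02%). Of all measured tiles under the same density limit, 14.5% lay that near. In terms of the gained tiles, 54 of 116 within 250 bp of a matched start were late (46.6%), 54 of 104 at 250 to 1000 bp (51.9%) and 63 of 318 at 1 to 5 kb (19.8%). Farther out, 144 of 940 at 5 to 20 kb were late (15.3%) and 553 of 3098 beyond 20 kb (17.9%). Gained tiles themselves were few near starts, at 3.55% of measured tiles within 250 bp and 5.21% at 250 to 1000 bp. They were 23.6% at 1 to 5 kb, 28.5% at 5 to 20 kb and 11.7% beyond 20 kb. Near a start a tile was thus seldom gained, and late tiles lay there no more often than all measured tiles. The 25 late tiles of chromosome 18 have no distance, since its promoters were not used here. These tiles are not replicates, and neighbouring tiles share fragments, so the shares carry no test. The percentage of late tiles near a start ran from 11.7 to 14.5% when each library was left out.

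CpG density also differed between the sets, so the counts were repeated within classes of density. Late tiles had a median of 12 listed sites per kb, against 10 in the tiles over 70% in Type5b, and 30.8% of late tiles had 20 to 39 sites, against 16.1%. Within that denser class, 83 of 270 late tiles (30.7%) lay within 1 kb of a matched start, against 22 of 306 (7.19%) and 24.8% of all measured tiles. With 10 to 19 sites per kb it was 19 of 260 (7.31%), against 16 of 704 (2.27%) and 8.48% of all measured tiles. With 0 to 9 it was 6 of 338 (1.78%), against 8 of 891 (0.898%) and 2.23% of all measured tiles. The late tiles lay above the tiles over 70% in Type5b in each class, and below all measured tiles in the 2 sparser classes. Density was counted over the sites the assay reached.

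**Figure D3:**
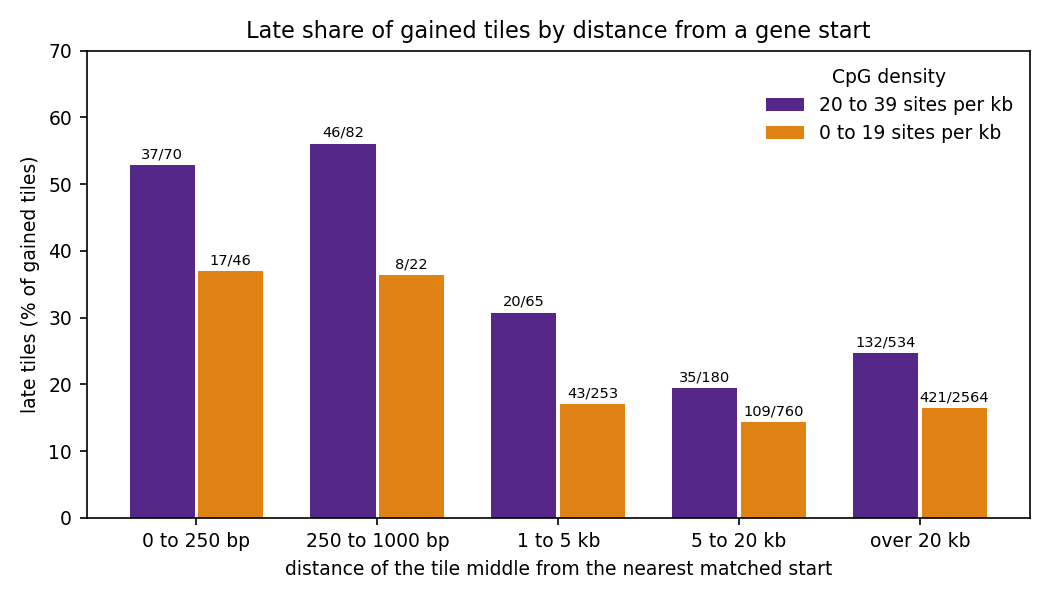
Late tiles as a percentage of gained tiles by distance of the tile from the nearest matched start, for 2 classes of CpG density, with the counts above the bars. Within 1 kb the late share was above that of every farther bin in both classes. The share is of gained tiles, not of all measured tiles.

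In gene bodies the late tiles lay between the tiles over 70% in Type5b and all measured tiles. Late tiles inside a matched protein-coding gene and over 1 kb from a start were 216 of 868 (24.9%), against 798 of 1901 (42.0%) of the tiles over 70% in Type5b and 4723 of 36374 (13%) of all measured tiles. Late tiles were below the tiles over 70% in Type5b in each density class, with 28.4 against 42.4% at 0 to 9 sites per kb, 28.5 against 42.6% at 10 to 19, and 17.0 against 39.2% at 20 to 39.

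Near starts the late tiles stayed almost unmethylated until Type5b. The 108 tiles within 1 kb of a matched start had 52.4, 52.3 and 60.2% in Type6 and 4.02, 6.42, 0.30, 2.49 and 0.958% in Type4. The 760 tiles beyond 1 kb had 65.6, 66.6 and 64.7% in Type6 and 18, 29.5, 7.89, 18.3 and 6.16% in Type4. The tiles near starts were thus the lower set in all 3 Type6 and all 5 Type4 libraries. Their Type3b level was 2.02% ± 0.0419, against 10.3% ± 3.08 in the tiles beyond (n = 3). With 20 to 39 sites per kb the near tiles had 52.6% ± 3.73 in Type6 and 2.42% ± 2.46 in Type4, and the far tiles 56.7% ± 1.23 and 8.69% ± 5.38. Of the near tiles tested, 82 of 103 were called higher in Type6 than in Type4, against 389 of 702 of the far ones and 11.4% of all tiles tested, and the median differences were 53.6 and 51.8 points. The lower level near starts was not particular to late tiles. It was also seen in the comparison set, the gained tiles already high in Type5b (46 near, 1855 far). In that set the near tiles had 81.0% ± 0.681 in Type6, against 91.4% ± 1.96 in the far ones (n = 3). In Type4 they had 11.6% ± 8.07, against 23.6% ± 14.2 (n = 5), and in Type3b 7.84% ± 2.31, against 13.8% ± 4.44 (n = 3).

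**Figure D4:**
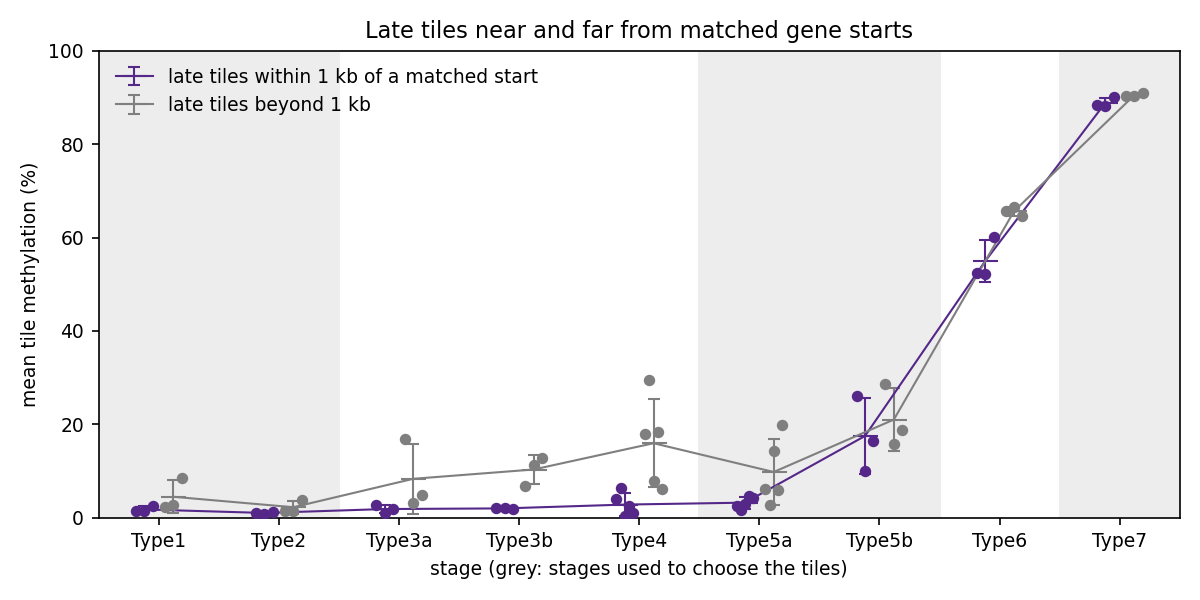
Mean methylation (%) by stage of late tiles within 1 kb of a matched start (108) and beyond (760). Points are libraries, bars are mean and SD, and grey marks the stages that chose the tiles. In Type4 the near tiles were at 0.30 to 6.42% and the far ones at 6.16 to 29.5%.

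The 38 late tiles in promoter windows ran from 12.5 to 100% in Type6. Of these, 12 were over 80%, 22 at 40 to 80% and 4 under 40%, and 33 were called higher in Type6 than in Type4, where 11.4% of all tiles tested were. Only 4 were over 20% in Type4. These genes were named after the values had been seen. The 300-bp windows with a late tile held a median of 18.5 CpGs (32 promoters), those with a tile over 70% in Type5b 11 (24 promoters), and all matched promoters 24.

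Promoters nearly complete in Type6 included Tmem91, Fkbp6, Bcas3 and Hsf5. Tmem91 encodes a transmembrane protein. Its tile 34 bp past the start had 100, 100 and 90.6% in Type6, against 0.350, 4.11, 0 and 0% in 4 Type4 libraries (difference 95.8 points, quasi-binomial adjusted p = 0.000100). It is 1 of the 6 tiles picked by that difference. The neighbouring Tmem91 tile had 71.8, 100 and 100% in Type6, against 7.03, 0, 0 and 0% in Type4. Both were low in all 3 Type5b libraries, at 4.87, 13.1 and 29.1% and at 1.27, 6.45 and 13.5%. Fkbp6 encodes an immunophilin needed in male germ cells for meiosis and the silencing of transposons. Its tile 32 bp past the start had 99.0, 95.7 and 97.0% in Type6, against 32.3, 73.7, 0, 24.1 and 0% in Type4, and the high Type4 libraries were again replicates 1, 2 and 5. In Type5a, however, its highest level was 98.4% in replicate 6, a library with an X measure below 0, against 0 to 37.9% in the other 3 libraries that measured it. Hsf5, a heat shock factor family member known from spermatogenesis, had 100, 93.4 and 92.2% in Type6, against 0, 66.7, 0 and 0% in Type4 replicates 1, 2, 4 and 5. Unlike Tmem91, these promoters were not low in every Type5b library. The Fkbp6 tile 32 bp past the start had 12.2 and 48.2% in Type5b replicates 2 and 3. Bcas3 had 14.7, 0 and 79.8% in the 3 Type5b libraries, and Hsf5 10.5, 68.8 and 0%.

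Other promoters were intermediate in Type6, with large gaps between libraries. Abl1 encodes a non-receptor tyrosine kinase. Its tile 8 bp before the start had 78.2, 32.7 and 99.6% in Type6, against 0, 0, 0 and 4.68% in 4 Type4 libraries (adjusted p = 0.00154, quasi-binomial), and its other tile 83.8, 29.7 and 95.3%, against 5.94, 9.18, 0, 7.69 and 0.474%. Rangrf, which encodes a Ran-binding factor, had 66.1, 18.3 and 78.3% in Type6 and 3.03, 0, 0, 0 and 0% in Type4. In both genes replicate 2 was the lowest of the Type6 libraries. Ncmap, a myelin-associated protein in other tissues, had 0, 82.1 and 72.6% in Type6, against 0, 1.43, 0.0816 and 0% in Type4, so here replicate 1 was the lowest. Nmb, which encodes the peptide neuromedin B, had 58.0, 100 and 56.1% in Type6 and 0% in all 5 Type4 libraries.

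**Figure D5:**
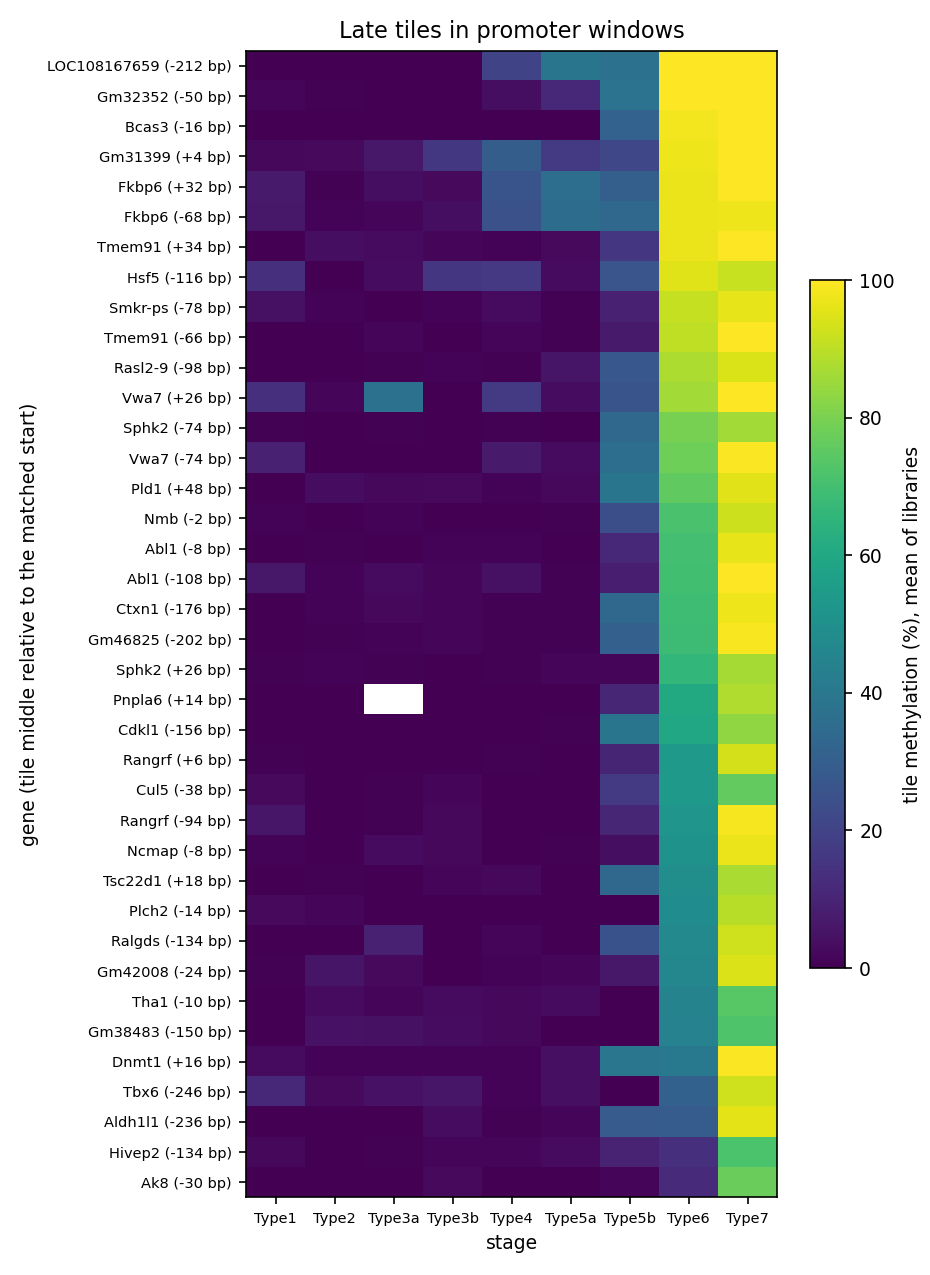
Mean methylation (%) by stage of the 38 late tiles in promoter windows, ordered by Type6 level, each named by its gene and its distance from the matched start. White marks a stage with no library. Type6 levels ran from 100% down to 12.5%.

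Dnmt1, the maintenance methyltransferase that copies methylation after replication, carried a late tile at 1 of its 3 starts in the RefSeq table. This tile, 16 bp past that start, had 17.5, 49.0 and 54.7% in Type6, against 3.14, 0, 0, 2.17 and 0% in Type4 (difference 39.3 points, quasi-binomial adjusted p = 0.00387). In Type7 it was at 99.6, 99.9 and 98.6%. Only 2 Type5b libraries measured it, at 9.29 and 69.1%. Their mean of 39.2% was just inside the 40% limit and near the Type6 mean of 40.4%. A gain between Type5b and Type6 is thus not shown for this tile. The other 2 starts were not matched to the sites.

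The latest promoters were Ak8 and Hivep2. Ak8 encodes an adenylate kinase of cilia. Its tile had 1.49, 28 and 8.0% in Type6, against 0.283, 0, 0, 0 and 0% in Type4, and 54.5 and 100% in the 2 Type7 libraries that measured it. Hivep2 encodes a zinc finger transcription factor. Its tile had 0, 23.7 and 18.3% in Type6, against 0, 6.49, 0 and 0% in Type4. In Type7 it was at 94.5, 100 and 21.1%, so 1 of the 3 Type7 libraries remained low. Neither reached the 20 points required for a call, with differences of 12.4 points each.

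Late tiles came singly or in short groups. They formed 736 groups in which neighbours lay at most 1000 bp apart, 603 of them single tiles and 133 of 2 to 4 tiles. Only 388 of the 893 late tiles had a measured tile directly beside them, so group size also depends on which tiles the assay covered. Where the next gained tile lay within 200 bp, it was also late in 146 of 193 cases (75.6%), against the 19.1% of gained tiles that are late. Tiles over 70% in Type5b were followed by one of their own kind in 244 of 338 cases (72.2%), so such agreement was not particular to late tiles. A tile directly beside a late tile was late in 282 of 415 cases and over 70% in Type5b in 9. It was over 70% in Type7 in 369.

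The 3 largest groups held 4 tiles each. That at Ncmap, on chromosome 4 from 134953401 to 134954200, had a mean of 59.9% ± 30 in Type6 (n = 3, 27.7 to 87.1%) and 3.32% ± 3.48 in Type4 (n = 5). That inside Fbxo46, which encodes an F-box protein, on chromosome 7 from 19716801 to 19717200, had 81.9% ± 15.7 in Type6 and 0.233% ± 0.379 in Type4. The third, on chromosome 19 from 46403701 to 46404100, 2104 bp from the start of Psd, had 44.8% ± 10.7 in Type6 and 1.49% ± 2.35 in Type4. In all 3 groups every gained tile of the span was late.

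Late tiles were spread over all chromosomes measured. Their share of gained tiles ran from 13.1% on chromosome 1 (27 of 206) to 25% on chromosome 18 (25 of 100) among the autosomes, and was 36% on X (31 of 86). Of the late tiles 3.47% lay on X, against 1.84% of gained tiles and 5.01% of all measured tiles of any density. The X tiles are few, and the X levels of the 9 libraries named above differ from the rest. By density, 16.5% of gained tiles with 0 to 9 sites per kb were late (350 of 2123), 16.7% with 10 to 19 (268 of 1604) and 29.0% with 20 to 39 (275 of 949). The late tiles of these classes had 68.8% ± 0.794, 66.8% ± 0.596 and 55.7% ± 0.685 in Type6 (n = 3) and 19.5% ± 12.0, 15.4% ± 8.59 and 6.90% ± 4.40 in Type4 (n = 5).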

How the data were processed

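For each CpG the deposited files list a total read count, a methylated read count, the methylated fraction and strand-specific reads. BSMAP 2.89 and mm9 are named in the submitters' processing notes. The methylation caller is not given in the sources used here. A deposited count or fraction is listed only where a site has at least 3 reads. Reads per library ran from 7949652 to 60361665, and 296800 to 775364 sites per library had 5 or more reads; without molecular identifiers, copies made by PCR are counted as reads. The embryo stage names in 1 label go against the titles and were left aside.

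Reads of sites with 5 or more were added up per 100-bp tile, which needed at least 3 such sites, and a stage level is the mean of its library levels. The tests used a quasi-binomial model of the tile reads on the 14 libraries of Type3a, Type3b, Type4 and Type6, which the choice of tiles does not use, with dispersion moderated over tiles and floored at 1, an F test and Benjamini-Hochberg adjustment over all tiles tested. A call needed an adjusted p under 0.05 and 20 points. The model was tested on simulated data, where unchanged tiles had unadjusted p-values under 0.05 too often. Unadjusted shares are therefore read only against those of all tiles. The adjusted p-values are made from the same p-values, so they may be too small and the calls too many. Single tiles also had two-sided exact permutation tests.

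Tiles named are the 6 with the largest called Type6 minus Type4 difference without overlap and the 6 lowest in Type6, both among late tiles measured in all 3 Type6 libraries and at least 2 of each of Type3a, Type3b and Type4. Named without that requirement are the 3 late tiles highest in Type4, the 3 largest groups, and 3 gained tiles on each side of the 40% limit. The members and lists were chosen with earlier results of these data known. The promoter matching, the 1 kb distance and the promoter genes named were chosen after seeing the data. Matching required at least 4 listed sites, no mismatch and 1 place only; 82 promoters with more than 1 place and 19 out of order with their neighbours were dropped. Alternatives were other read and site minimums, tile size, limits, libraries left out, limma, edgeR and a replicate block. Models were run in Python 3.11.15 (scipy 1.17.1, numpy 2.4.6, pandas 2.3.3), with edgeR 4.0.16 and limma 3.58.1 under R 4.3.3, and plots in matplotlib 3.10.9.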

Additional observations from a re-analysis of the deposited data

Results flagged for a closer look

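The library values of 16 sets of 4 or 5 libraries were screened. These were set means in Type4 and Type5a and named tiles in Type4. In 3 of them 1 library lay far from the others. A chance rate of about 1 in 20 does not apply to tiles near 0%. Where all other libraries are at 0%, any value above 0 stands out. In Type4, the tile on chromosome 16 at 30172001 was at 24.3% in replicate 5 (50 of 206 reads) and at 0% in the other 3 libraries. The Tmem91 tile on chromosome 7 at 26460101 was at 4.11% in replicate 2 (3 of 73 reads) and at 0 to 0.350% in the others. The tile near Gdf1 on chromosome 8 at 72854101 was at 2.46% in replicate 1 (3 of 122 reads) and at 0% in the others. Replicates 1, 2 and 5 are the Type4 libraries with an X measure above 0, but a link of these values with that measure was not tested. No set mean of late tiles in Type4 or Type5a was among the 3.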

How the results depend on the processing

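The sign of the difference was followed only in 15 named tiles. The 6 called among them were picked for the largest differences, and none of these changed sign. Under limma, edgeR, the block and the fits on other sets of stages the difference comes from the same library levels. There the sign could not change, so those settings do not test it. Among tiles that were not called, the Type6 minus Type4 difference crossed 0 with 1 library left out on chromosome 11 at 88311601 (-1.64 to 8.79 points), chromosome 2 at 69604301 (-0.77 to 14.8) and chromosome 4 at 154417501 (-3.73 to 1.35). The number of late tiles, 893, became 542 with sites of at least 10 reads, 1683 and 277 with at least 2 or 5 sites per tile, 478 with limits of 30 and 80%, 483 when the 9 libraries with a positive X measure were dropped, and 563 to 893 with 1 library left out (563, 579 and 593 without Type1 replicate 1, Type1 replicate 3 or Type7 replicate 1). Their Type6 level, 64.2%, was 65.5% with 10 reads, 65.3 and 60.9% with 2 or 5 sites, 65.9% in 200-bp tiles, 63.6% with pooled reads, 61.8% with no density limit, 68.0% with fewer than 20 sites per kb, 63.5% with the stricter limits and 63.6 to 67.6% with 1 library left out. The Type4 level, 14.4%, was 6.63% without the 9 libraries.

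Calls for Type6 against Type4 among late tiles, 482, became 293 with 10 reads, 879 and 166 with 2 or 5 sites, 306 with fewer than 20 sites per kb, 253 with the stricter limits, 194 without the 9 libraries and 343 to 497 with 1 library left out. For Type6 against Type3b, 423 became 258, 743, 145 and 218 in the same order of settings (10 reads, 2 sites, 5 sites, stricter limits), 211 without the 9 libraries, 269 in a fit on the 2 stages and 157 to 445 with 1 library left out, the lowest without Type3b replicate 1. Type4 against Type3b, 0 calls, became 2 in a fit on all 31 libraries and 0 to 0 with 1 left out.

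The planned edgeR test, by quasi-likelihood, called 0 late tiles in each comparison, and 0, 7 and 0 over all tiles. Its likelihood ratio test was run only after that 0 had been seen, and called 424, 375 and 3 late tiles; limma called 397, 368 and 0. Which edgeR test is nearer the truth was not tested. With the replicate number as a block the calls were 192, 405 and 1. Deviations of same-numbered libraries correlated at -0.066 to 0.075, and those of differently numbered libraries at -0.125 to 0.115. The same-numbered pairs are few, and whether the numbers mark shared animals or batches was not tested.

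The percentage within 1 kb of a matched start, 12.4%, was 8.73 and 24.5% with 2 or 5 sites, 9.84% in 200-bp tiles, 17.1% with no density limit, 4.18% with fewer than 20 sites per kb and 11.7 to 14.5% with 1 library left out. Alternatives were run for 15 named tiles, not for those beside the 40% limit; the 6 called among the 15 lost the call under edgeR's quasi-likelihood test, 1 under the block and 1 without Type4 replicate 6. Depth limits single tiles, some of which rest on as few as 15 reads in a library.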
